A study of Mus musculus with 12 samples.

Results

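The genes of the EGF receptor family were followed in sorted cells of the mouse small intestine. The 10 genes were chosen by name out of 34245 genes of the count table: the receptors *Egfr*, *Erbb2* and *Erbb3*, the receptor inhibitors *Lrig1* and *Errfi1*, and the ligands *Areg*, *Ereg*, *Hbegf*, *Tgfa* and *Egf*. All 10 had counts and passed the minimum of 10 counts in each comparison. RNA of intestinal stem cells (ISC) and of adult enterocytes (AE) from young and old mice was sequenced as 12 libraries, 3 in each of 4 groups. Young mice had a mean age of about 8 months and old mice of about 27 months. All were C57BL/6 males that carried the Lgr5-GFP allele, in which the *Lgr5* promoter drives EGFP together with an inducible Cre. This allele is known to be silent in a part of the crypts, so that GFP marks some of the *Lgr5*-expressing cells. ISC were sorted from crypts as GFP-high cells, and AE were sorted from villi as Epcam-high cells negative for CD45 and CD31. The methods name no treatment of the mice. They name Dispase II, DNase and collagenase for the crypt suspensions, and ISC were not stained with the antibodies used for AE. This difference in preparation goes with the cell type and cannot be told apart from it.

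EGF family ligands are made as membrane-bound precursors that proteases release from the cell surface. A bound ligand lets receptors of the family pair with each other, and the paired kinases start the relay through RAS, RAF and MEK to ERK. In the crypt this signal is known to sustain proliferation of stem cells, and LRIG1, a transmembrane protein that marks crypt stem cells, lowers the amount of the receptors. ERBB2 binds no ligand by itself and acts as a partner, while ERBB3 has a very weak kinase of its own and depends on its partner.

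The libraries held from 11893817 to 110794420 counts, with young AE replicate 3 far deeper than the others, and 3 counts stood for 0.0359 to 0.327 CPM (counts scaled to library size). Such limits cover counting error only, as the reads were amplified without molecular identifiers. The label ISC or AE of each library was checked against marker genes. *Lgr5* was at 79.7 to 146 CPM in the 6 ISC libraries and at 0.55 to 4.72 CPM in the 6 AE libraries. *Vil1* was at 416 to 752 CPM in ISC and at 4259 to 6163 CPM in AE. AE also held goblet cell markers, whose sum over 8 genes lay between 29926 and 61703 CPM against 1543 to 2415 CPM in ISC, and enteroendocrine markers at 3371 to 12161 CPM against 259 to 905 CPM. Of the endothelial markers, *Cdh5* had 0 counts in all libraries, *Kdr* had counts in old ISC only, and *Pecam1* had counts in each group. Summed T cell markers lay at 3.06 to 52.3 CPM, myeloid markers at 14.8 to 38.1 CPM and stromal markers at 8.13 to 21.4 CPM. These lists were low beside the goblet and enteroendocrine markers. The T cell sums were 8.69 to 20.2 CPM in young ISC and 3.06 to 4.7 CPM in old ISC. They were 16.9 to 51.6 CPM in young AE and 19.7 to 52.3 CPM in old AE, without overlap with ISC in old mice. These AE sums were not low beside *Areg* (8.76 to 28.5 CPM) and *Ereg* (3.52 to 11.7 CPM) in AE. The part of T cell RNA in the AE levels of the family was not tested. The methods give the ages of 3 animals per age for the sequencing, so that the ISC and AE libraries of an age would come from the same 3 mice, and the shared library codes are not stated to name them. Fits without a replicate block treat these libraries as independent.

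Among the 10 genes, RefSeq promoter windows of the GRCm38.p6 build were matched for 7. The 4 below are shown because they belong to the genes that stood on opposite sides in the comparison of the cell types: the ligands *Areg* and *Tgfa*, higher in AE, and *Lrig1* and *Egfr*, higher in ISC. Each is the 250 bases before the RefSeq start of the gene, which for *Lrig1* lies 13 bases inside the gene of the count table, written 5′ to 3′ on the strand of the gene, with the motifs found in capitals.
*Areg* upstream window, chr5:91139349-91139598, strand +: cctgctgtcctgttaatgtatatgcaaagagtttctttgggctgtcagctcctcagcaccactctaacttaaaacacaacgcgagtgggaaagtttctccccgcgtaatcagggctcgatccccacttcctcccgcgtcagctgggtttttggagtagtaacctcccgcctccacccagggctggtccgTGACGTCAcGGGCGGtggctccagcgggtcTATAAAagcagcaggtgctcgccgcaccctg
*Tgfa* upstream window, chr6:86194972-86195221, strand +: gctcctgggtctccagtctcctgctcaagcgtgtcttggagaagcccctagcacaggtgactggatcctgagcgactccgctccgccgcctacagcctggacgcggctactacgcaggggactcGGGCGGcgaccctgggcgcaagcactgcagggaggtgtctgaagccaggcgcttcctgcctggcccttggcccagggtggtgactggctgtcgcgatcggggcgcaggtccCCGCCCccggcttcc
*Lrig1* upstream window, chr6:94700146-94700395, strand -: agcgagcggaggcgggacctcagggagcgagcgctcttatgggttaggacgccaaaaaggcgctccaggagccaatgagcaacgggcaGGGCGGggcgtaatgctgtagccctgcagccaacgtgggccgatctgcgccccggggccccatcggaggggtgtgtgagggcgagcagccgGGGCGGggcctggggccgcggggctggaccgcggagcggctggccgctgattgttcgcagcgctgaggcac
*Egfr* upstream window, chr11:16751953-16752202, strand +: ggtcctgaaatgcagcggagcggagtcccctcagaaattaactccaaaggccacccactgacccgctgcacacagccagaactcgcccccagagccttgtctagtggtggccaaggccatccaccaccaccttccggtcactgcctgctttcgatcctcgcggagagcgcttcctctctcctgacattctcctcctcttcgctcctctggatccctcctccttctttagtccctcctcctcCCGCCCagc
Motifs were searched on both strands: the cAMP response element TGACGTCA, the GC box GGGCGG, the TATA box TATAAA, the AP-1 motif TGANTCA, the TCF/LEF motif CTTTGAT and the HNF4 motif CAAAGTCCA. The *Areg* window held the cAMP response element at position -61, followed by a GC box at -52, and a TATA box at -31, counted from the RefSeq start. The cAMP response element stood in 1.55% of 32851 promoter windows of this length, the TATA box in 12.4% and the GC box in 32.7%. *Tgfa* held GC boxes at -126 and -15, *Lrig1* at -162 and -71, and *Egfr* a GC box at -9, which reads CCGCCC on the strand shown. None of the 4 windows held the AP-1 motif (6.75% of windows), the TCF/LEF motif (3.21%) or the HNF4 motif (0.384%). These matches describe the letters of the window, and binding was not measured.

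The first comparison asked how the family differs between stem cells and differentiated cells. In both young and old mice, 7 of the 10 genes were higher in AE, namely *Erbb2*, *Erbb3*, *Errfi1*, *Areg*, *Ereg*, *Hbegf* and *Tgfa*, while *Lrig1* and *Egfr* were lower. *Egf* was lower in AE of old mice and was not called in young mice. By the quasi-likelihood test of edgeR with an FDR (Benjamini-Hochberg adjusted p) under 0.05, 9 of the 10 genes were called in young mice and 10 of 10 in old mice. These shares stood against a high background, since 55.6% of 16681 genes were called between the cell types in young mice (28.9% higher and 26.7% lower in AE) and 64.9% of 15855 in old mice (30.6% higher and 34.2% lower). For 9 of the 10 genes, all 6 AE libraries lay on the same side of all 6 ISC libraries in CPM. AE was above for 7 and below for 2, against 49.7% of all genes (24.4% above and 25.2% below). These CPM were scaled by TMM factors, of 1.26 to 1.37 in ISC and 0.72 to 0.82 in AE. Whether the libraries also separate on library totals alone was not tested. The median log2 fold change between AE and ISC was 1.23 for the 10 genes and 0.15 for all genes in young mice, and 1.26 and -0.13 in old mice. In bulk RNA of sorted cells, fewer cells of a type and less RNA per cell cannot be told apart.

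**Figure D1:**
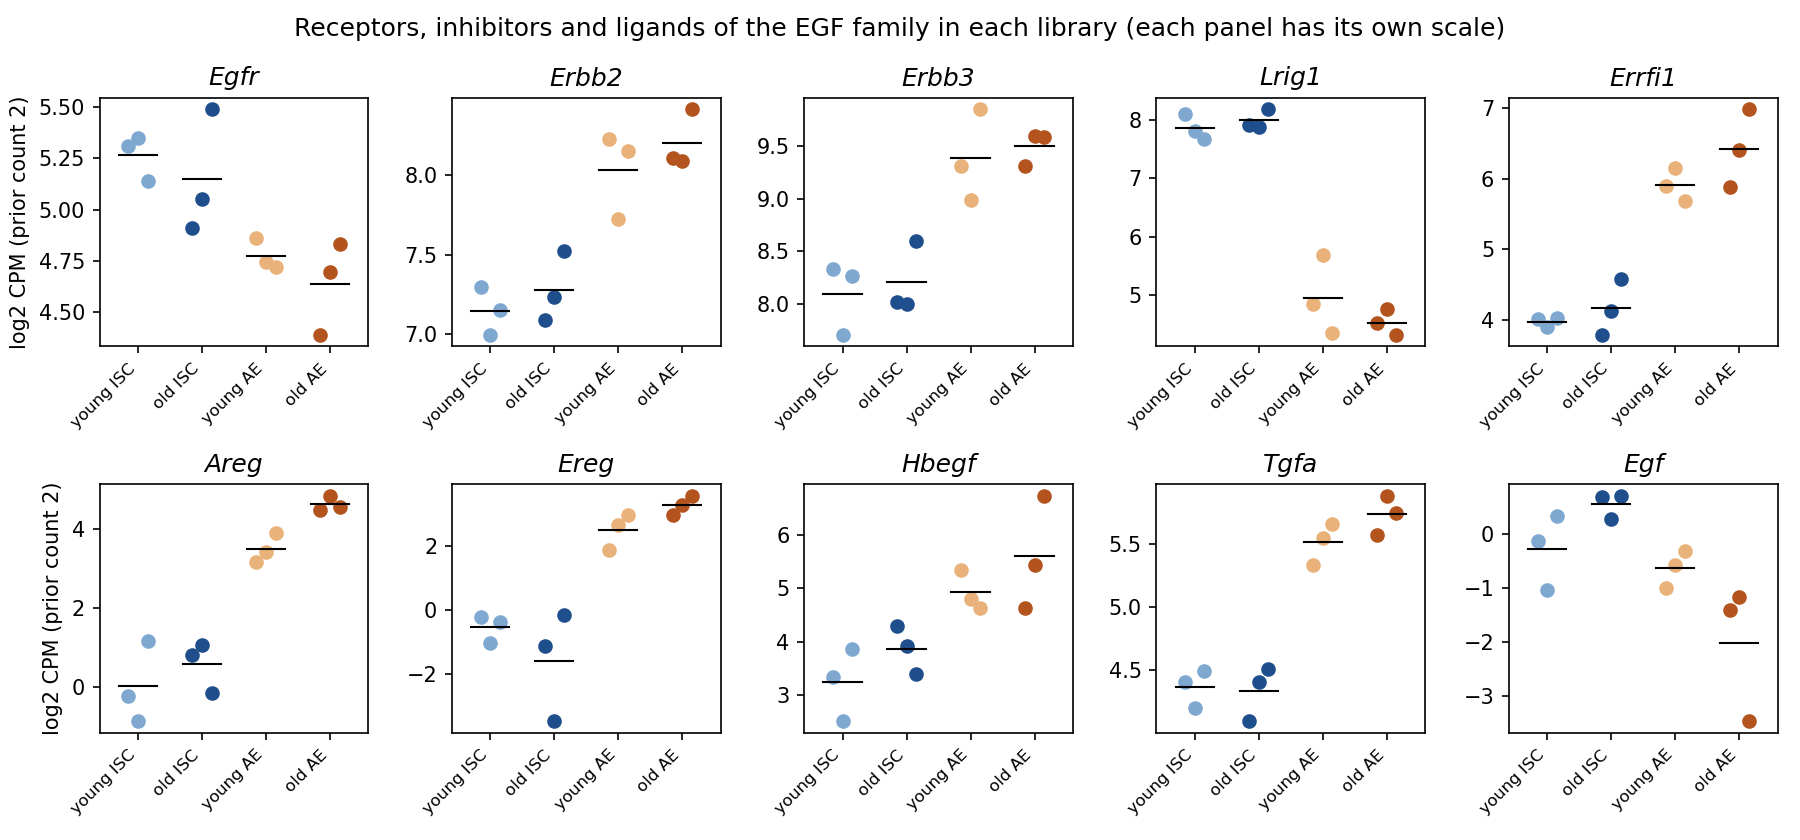
Level of each of the 10 genes in each library, as log2 CPM with a prior count of 2 (y axis, 1 scale per panel), for young ISC, old ISC, young AE and old AE (x axis). Points are libraries, 3 per group, and lines are group means; AE and ISC points do not overlap in any panel but that of *Egf*.

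*Egfr* (ENSMUSG00000020122.16, chr11:16752203-16918158, plus strand), the receptor that binds all 5 ligands, was at 39.6, 40.7 and 35.2 CPM in young ISC and at 30, 33.1 and 44.9 CPM in old ISC. It was at 29, 26.7 and 26.3 CPM in young AE and at 20.8, 25.8 and 28.4 CPM in old AE. All AE libraries lay below all ISC libraries, by a narrow margin in old mice. AE differed from ISC by a log2 fold change of -0.50 in young mice (standard error, SE, 0.15, FDR = 0.0224) and -0.60 in old mice (SE 0.20, FDR = 0.022), a 1.41-fold and a 1.51-fold lower level. These calls rested on single libraries. In young mice the FDR was 0.0528 without ISC replicate 1 and 0.0882 without ISC replicate 2, and in old mice it was 0.0634 without ISC replicate 5 and 0.0895 without AE replicate 1.

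The partner receptors went the other way. *Erbb2* (chr11:98412470-98437716, plus strand) was at 157, 127 and 142 CPM in young ISC and at 299, 211 and 285 CPM in young AE. In old mice it was at 136, 150 and 184 CPM in ISC and at 276, 273 and 341 CPM in AE. The lowest AE library of either age lay above the highest ISC library, and the log2 fold change was 0.90 in young mice (SE 0.19, FDR = 0.00387) and 0.85 in old mice (SE 0.18, FDR = 0.00171). *Erbb3* (chr10:128567523-128589652, minus strand) was at 321, 208 and 307 CPM in young ISC and at 634, 508 and 922 CPM in young AE. Its levels in old mice were 259, 255 and 388 CPM in ISC and 636, 776 and 770 CPM in AE. Young AE had a wide spread, from 508 to 922 CPM, and still all AE libraries were above all ISC libraries, with a log2 fold change of 1.30 in young mice (SE 0.28, FDR = 0.00421) and 1.20 in old mice (SE 0.22, FDR = 0.00072). Both calls depended on the scaling between the cell types. With library totals in place of TMM factors, the median of all genes moved by -0.70 in young and -0.78 in old mice, *Erbb2* was at 0.19 (FDR = 0.393) and 0.06 (FDR = 0.771), and *Erbb3* at 0.59 (FDR = 0.0768) and 0.41 (FDR = 0.107), so that both stayed above that median.

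Levels of different genes were compared per length, as reads per kilobase of exon and library size (RPKM). On this scale *Erbb3* was the most abundant receptor in all 4 groups, with a level of 46.3 ± 10.2 RPKM (SD, n = 3 libraries) in young ISC, 50 ± 12.6 in old ISC, 114 ± 35.3 in young AE and 121 ± 13.1 in old AE. *Erbb2* followed, with 27.3 ± 2.87, 30.1 ± 4.71, 50.9 ± 9.04 and 56.9 ± 7.41 RPKM in the same order. *Egfr* was the lowest of the 3, with 3.4 ± 0.255, 3.18 ± 0.693, 2.41 ± 0.128 and 2.21 ± 0.338 RPKM. The ratio of *Erbb3* to *Egfr* within a library was 13.8 ± 3.61 in young ISC and 15.7 ± 1.02 in old ISC, against 47.7 ± 16.1 in young AE and 55.1 ± 3.45 in old AE. The ratio of *Erbb2* to *Egfr* was 8.08 ± 1.1 and 9.55 ± 0.554 in ISC against 21.1 ± 3.4 and 26 ± 2.92 in AE. Neither ratio overlapped between ISC and AE at either age.

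*Lrig1* (ENSMUSG00000030029.14, chr6:94604529-94700158, minus strand) had the largest fall of the 10 genes. It was at 274, 223 and 205 CPM in young ISC and at 240, 235 and 290 CPM in old ISC. In AE it was at 28.6, 51.3 and 20.3 CPM in young and at 22.8, 27 and 19.9 CPM in old mice. The highest AE library, young AE replicate 2, lay far below the lowest ISC library. AE was 7.03-fold lower in young mice, a log2 fold change of -2.81 (SE 0.34, FDR = 0.00041), and 11.5-fold lower in old mice, at -3.53 (SE 0.19, FDR = 2.54e-07). Young AE replicate 2 also had the highest sum of the 10 stem cell markers in AE, at 577 CPM against 126 to 226 CPM in the other 5, where ISC held 5061 to 7126 CPM. Without it the log2 fold change in young mice was -3.36, and without young AE replicate 3 it was -2.60. The part of the stem cell markers in these values was not tested. The ratio of *Lrig1* to *Egfr* in RPKM was 12.3 ± 1.52 in young ISC and 14.6 ± 1.59 in old ISC, against 2.49 ± 1.24 in young AE and 1.92 ± 0.437 in old AE.

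*Errfi1* (chr4:150853919-150868892, plus strand), which encodes the cytoplasmic inhibitor MIG6 that binds the active kinases of the family, was at 16, 14.8 and 16.2 CPM in young ISC and at 59.4, 71.2 and 51.2 CPM in young AE. Old mice had 13.7, 17.3 and 23.9 CPM in ISC and 59, 85 and 126 CPM in AE. The inhibitors therefore stood on opposite sides: *Errfi1* was 3.87-fold higher in young AE (log2 fold change 1.95, SE 0.18, FDR = 0.000122) and 4.69-fold higher in old AE (2.23, SE 0.29, FDR = 9.41e-05), and no library of AE overlapped with ISC.

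Among the ligands, *Areg* and *Ereg*, which lie next to each other on chromosome 5, had the largest rises. *Areg* (ENSMUSG00000029378.5, chr5:91139599-91148432, plus strand), which encodes amphiregulin, was at 0.765, 0.454 and 2.13 CPM in young ISC and at 8.76, 10.5 and 14.6 CPM in young AE. In old mice the levels were 1.66, 2 and 0.8 CPM in ISC and 22.1, 28.5 and 23.3 CPM in AE. ISC values rested on 8 to 59 counts per library and AE values on 107 to 1224 counts. *Areg* was 10.1-fold higher in young AE (log2 fold change 3.34, SE 0.50, FDR = 0.000843) and 15.8-fold higher in old AE (3.98, SE 0.30, FDR = 1.68e-06). Young ISC replicate 3, the highest ISC library for *Areg*, also had the highest sum of 14 enterocyte markers in ISC, at 9831 CPM against 1849 to 5757 CPM in the other 5. Without it, the log2 fold change in young mice was 4.24, and without young ISC replicate 2 it was 2.95. The part of enterocyte RNA in the ISC level was not tested.

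*Ereg* (chr5:91074622-91093646, plus strand), which encodes epiregulin, was at 0.765, 0.397 and 0.674 CPM in young ISC and at 3.52, 6.2 and 7.56 CPM in young AE. In old mice it was at 0.365, 0 and 0.8 CPM in ISC and at 7.61, 9.41 and 11.7 CPM in AE. Old ISC replicate 3 had 0 counts, which allows a level of up to 0.162 CPM, and the other 5 ISC libraries had 7 to 18 counts. The difference between AE and ISC was 3.26 on the log2 scale in young mice (SE 0.44, FDR = 0.000548) and 4.47 in old mice (SE 0.52, FDR = 2.93e-05), the largest of the 10 genes in old mice. Without old ISC replicate 5 the latter was 5.25, and without old ISC replicate 3 it was 4.03.

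*Tgfa* (chr6:86195223-86275719, plus strand), which encodes transforming growth factor alpha, was at 21.1, 18.2 and 22.4 CPM in young ISC and at 40.2, 46.5 and 50.4 CPM in young AE. Its levels in old mice were 17, 21.1 and 22.7 CPM in ISC and 47.5, 58.9 and 53.4 CPM in AE. Relative to its mean it had the smallest spread of the ligands. AE was higher by 1.15 on the log2 scale in young (SE 0.17, FDR = 0.000749) and by 1.33 in old mice (SE 0.17, FDR = 7.06e-05). With library totals in place of TMM factors, *Tgfa* was at 0.45 (FDR = 0.0452) in young and 0.54 (FDR = 0.0164) in old mice. *Hbegf* (chr18:36504929-36515805, minus strand), the heparin-binding ligand, was at 10, 5.56 and 14.4 CPM in young ISC and at 40.4, 28 and 24.8 CPM in young AE. Old mice had 19.4, 15 and 10.3 CPM in ISC and 24.6, 43.6 and 107 CPM in AE. In CPM, AE lay above ISC at both ages, with a log2 fold change of 1.63 in young mice (SE 0.35, FDR = 0.00495) and 1.89 in old mice (SE 0.54, FDR = 0.0198). With library totals *Hbegf* was at 0.94 (FDR = 0.0458) and 1.10 (FDR = 0.0867). The call in old mice was lost with a replicate block for the library code (1.67, FDR = 0.116) and without ISC replicate 3 (FDR = 0.0712) or ISC replicate 5 (FDR = 0.103), and the value was 1.13 without AE replicate 5.

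*Egf* (chr3:129677565-129755316, minus strand), the ligand the family is named for, was near the limit of detection. It had 13, 7 and 21 counts in young ISC, 54, 21 and 35 in old ISC, 5, 7 and 60 in young AE, and 3, 4 and 0 in old AE. On the CPM scale the young groups overlapped, at 0.397 to 1.18 CPM in ISC and 0.409 to 0.718 CPM in AE, while the old groups did not, at 1.13 to 1.55 CPM in ISC and 0 to 0.358 CPM in AE. AE against ISC gave a log2 fold change of -0.37 in young mice (SE 0.52, 95% interval -1.56 to 0.82, FDR = 0.562) and -2.68 in old mice (SE 0.65, interval -4.10 to -1.26, FDR = 0.00334). Exons of *Egf* overlap with those of the antisense genes *Gm42697* and *6330410L21Rik*, and although the libraries were directional, the strand setting of the gene counts is not stated, so that a share of antisense reads in these counts was not tested.

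**Figure D2:**
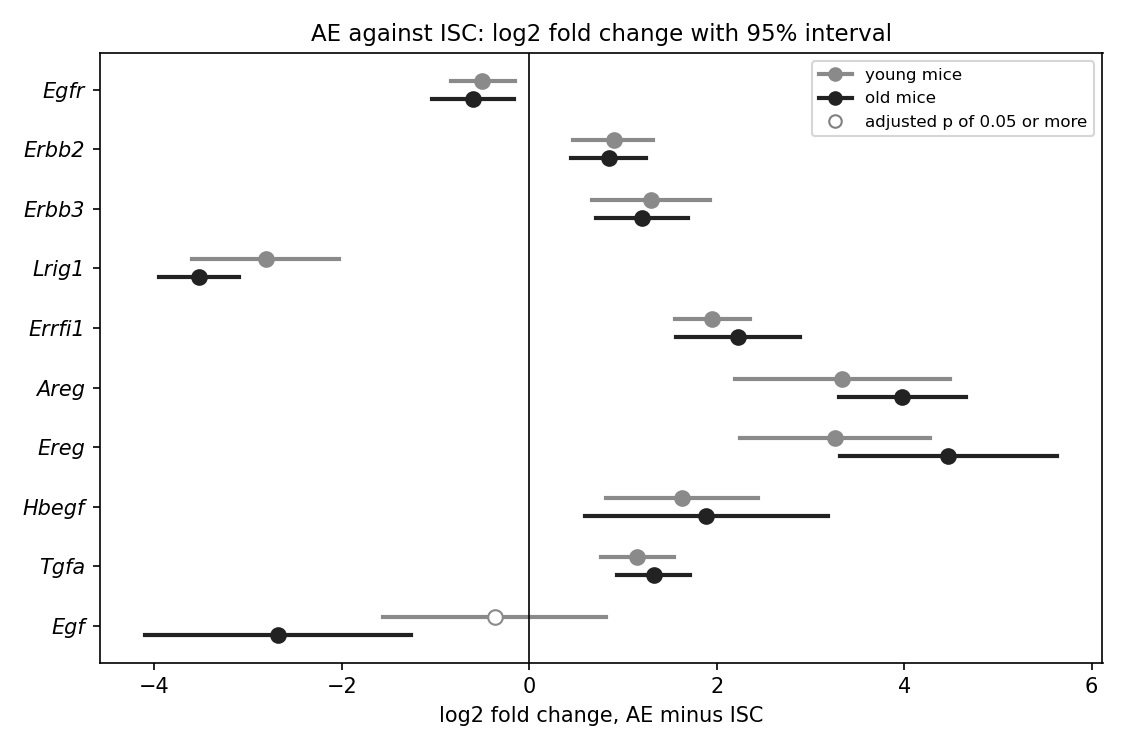
Log2 fold change of AE over ISC (x axis) for each of the 10 genes (y axis) in young mice (grey) and old mice (black), with 95% intervals from edgeR's quasi-likelihood fit on 3 against 3 libraries. An open circle marks an FDR of 0.05 or more, which only *Egf* in young mice has; *Lrig1* lies farthest to the left, at -2.81 and -3.53.

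The make-up of the summed RPKM of the 5 ligands differed between the cell types. The sum of the 5 ligands was 6.38 ± 2 RPKM (SD, n = 3 libraries) in young ISC and 7.65 ± 0.885 RPKM in old ISC, against 24.2 ± 2.29 RPKM in young AE and 42.9 ± 10.1 RPKM in old AE. *Tgfa* made up 52 ± 11.1% of this sum in young ISC and 41.6 ± 10.5% in old ISC, more than *Areg* with 13.1 ± 6.7% and 15.6 ± 5.25%. In AE *Areg* had the highest mean share, with 38 ± 6.56% in young and 48.7 ± 10.6% in old mice, and *Tgfa* had 29.1 ± 1.81% and 19.6 ± 3.55%. *Hbegf* lay between 25.8 and 48.9% in ISC and between 15.7 and 42.3% in AE, so that its share overlapped between the cell types. *Hbegf* was above *Areg* in young AE replicate 1 (8.36 against 7.21 RPKM) and in old AE replicate 5 (22.2 against 19.2 RPKM). It was below *Areg* in the other AE libraries. The lead of *Areg* in the AE means held per length only. In CPM its means were 11.3 in young and 24.6 in old AE, below *Tgfa* (45.7 and 53.3) and *Hbegf* (31.1 and 58.6). *Btc*, another ligand of the family, was not part of the sum, with group means of 5.88 to 7.4 CPM.

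Other genes of the pathway were read from 5 lists of 55 genes. Of all 52 that were tested in young mice 20 were called, and 27 of 50 in old mice, both a smaller share than the 55.6% and 64.9% of all genes. Of the other receptors and ligands, *Erbb4* and *Nrg3* had 0 counts in all libraries, *Nrg2* had at most 2 counts and *Epgn* at most 4. *Btc*, which encodes betacellulin, was at a mean level of 5.88 to 7.4 CPM in all 4 groups and was not called. *Nrg4*, a ligand of ERBB4, was higher in AE of old mice (log2 fold change 1.04, SE 0.36, FDR = 0.0271) and at 0.58 (FDR = 0.178) in young mice. *Nrg1*, a ligand of ERBB3, was called in young mice, yet it had at most 28 counts in young AE, in the deepest library, and 0 counts in the other 3 groups. Of 6 genes of ligand shedding, 3 were higher in young AE and 2 higher and 1 lower in old AE. Over all genes, 55.6% and 64.9% were called in either direction. The rhomboid protease gene *Rhbdl2* was at 2.04 in young and 2.58 in old mice, and *Frmd8*, whose product stabilises the iRhom sheddase complex, at 1.75 and 1.79. *Rhbdf2*, an iRhom gene, was at 0.54 in young mice (FDR = 0.0227) and 0.29 in old mice (FDR = 0.124). *Rhbdf1* was at -0.80 in young mice (FDR = 0.0626) and -0.98 in old mice (FDR = 0.0031). *Adam17*, the main sheddase of the family, was not called, at 0.05 and 0.25.

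Of 10 further regulators at the receptor, 4 were higher in AE at each age and 1 was lower in old mice. Of all genes, 28.9% in young and 30.6% in old mice were higher in AE, and 26.7% and 34.2% were lower. The higher genes were led by *Sh3kbp1*, an adaptor of receptor endocytosis, with log2 fold changes of 2.57 and 2.49. The phosphatase gene *Ptprj* had 1.39 and 1.85, and the ubiquitin ligase gene *Cblc* 1.23 and 1.34. *Socs5* was at -1.18 in young mice (FDR = 0.0545) and -1.88 in old mice (FDR = 6.43e-05). Of 18 genes of the relay to ERK, 7 were higher in young AE and 10 in old AE, and 0 were lower at either age by edgeR's test, where 28.9% and 30.6% of all genes were higher and 26.7% and 34.2% lower. The scaffold gene *Ksr1* was at 2.09 and 2.12, *Map2k1* at 1.62 and 1.71 and *Map2k2* at 1.08 and 1.42, the latter both MEK kinases. Of 14 genes of ERK feedback and targets, 3 were higher and 2 lower in young AE, and 4 were higher and 4 lower in old AE, beside the same shares of all genes. The ERK phosphatase gene *Dusp6* was at 3.59 and 4.38 and *Dusp5* at 2.53 and 2.60. *Ier3*, an early target of the relay, was at 1.63 in young mice and the feedback inhibitor gene *Spry4* at 2.56 in old mice. *Spry4* had at most 6 counts in old ISC and 14 in old AE. The transcription factor gene *Etv4* was at -2.27 (FDR = 0.0453) and -3.05, with at most 7 counts in old AE. The feedback inhibitor gene *Spred1* was at -1.66 and -1.64. *Ccnd1*, which encodes cyclin D1, was at -2.38 in young mice (FDR = 0.0767) and -3.70 in old mice (FDR = 1.61e-06). The genes of the last list thus moved in both directions, with a median log2 fold change of 0.05 in young mice.

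**Figure D3:**
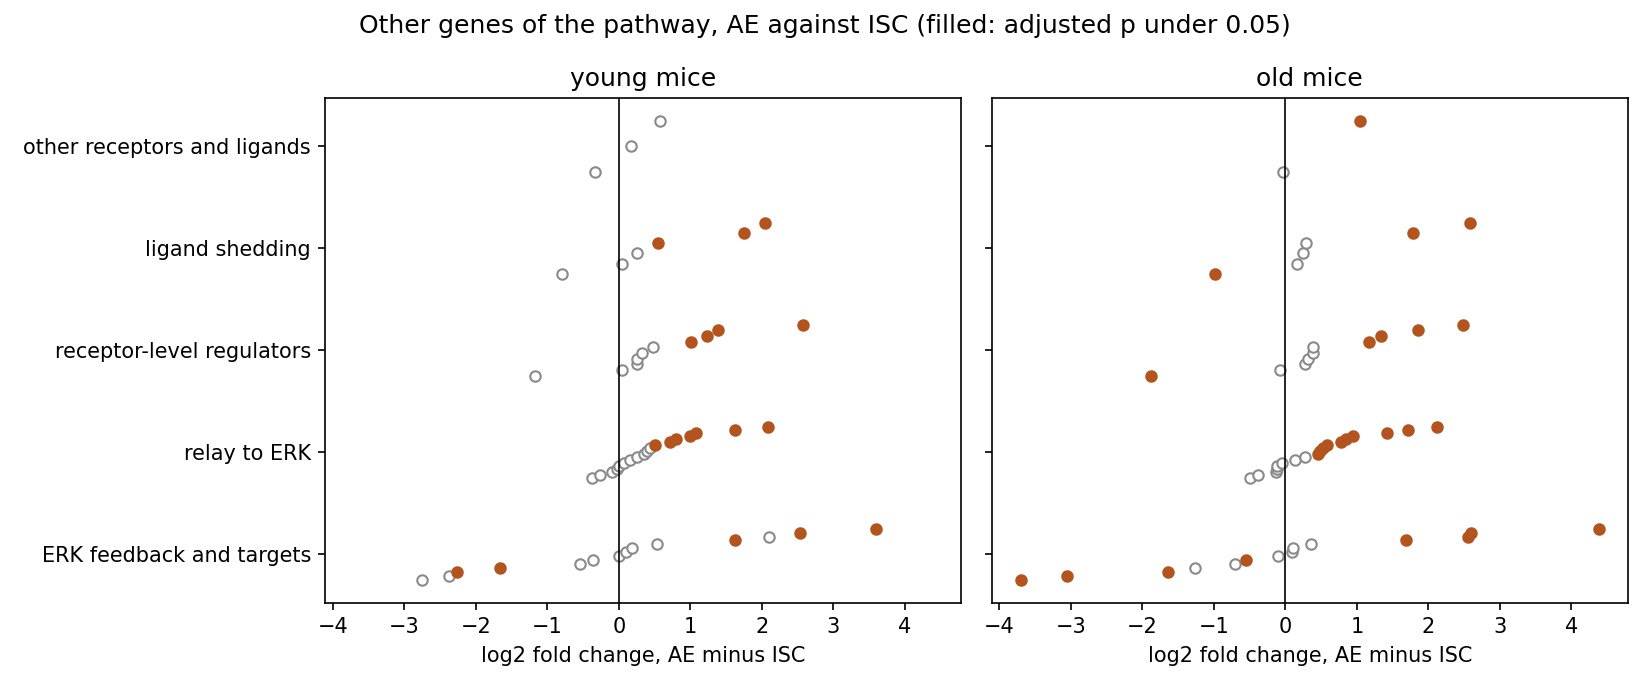
Log2 fold change of AE over ISC (x axis) for other genes of the pathway, grouped by list (y axis), in young mice (left) and old mice (right). Each circle is a gene, filled where FDR was under 0.05, and *Nrg1* is left out because its ISC libraries had 0 counts; the relay to ERK has filled circles on the right side only, and the feedback list has them on both sides.

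The second comparison asked whether the family differs between old and young mice. The age comparisons use the same libraries as those of the cell types, and their values are therefore given side by side only. By the adjusted quasi-likelihood test of edgeR, 0 of the 10 genes were called in ISC and 0 in AE, as were 0% of 15552 genes in ISC and 0% of 16265 in AE. At an unadjusted p under 0.05 by edgeR there were 0 of the 10 genes in ISC (background 5.04%) and 1 in AE (background 4.79%). DESeq2, the other tool run, called 0 of the 10 in ISC (background 0.373%) and 1 in AE, *Areg* (background 0.111%). Old and young libraries did not overlap for 0 of the 10 genes in ISC (background 8.86%) and for 3 in AE (background 10.9%): *Areg* and *Ereg* were above the young libraries (background 4.01%) and *Egf* below (background 6.94%). The median log2 fold change of the 10 genes was 0.14 in ISC and 0.21 in AE, against 0.01 and -0.04 for all genes.

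*Areg* in AE was at 8.76, 10.5 and 14.6 CPM in young and at 22.1, 28.5 and 23.3 CPM in old mice. The lowest old library was above the highest young one. The log2 fold change of old over young was 1.12 (SE 0.24, 95% interval 0.58 to 1.66), a 2.17-fold difference that ranked at 12 of 16265 genes by unadjusted p (0.00114) and did not pass the adjustment (FDR = 0.844 by edgeR's quasi-likelihood test). DESeq2 gave 1.13 (FDR = 0.0284). With each library left out in turn, the value was between 0.97 and 1.38 and the edgeR FDR between 0.15 and 0.999. In ISC the log2 fold change was 0.39 (interval -0.88 to 1.67), with 1.30 without young ISC replicate 3 and 0.01 without young ISC replicate 2. The difference between the age effects in AE and ISC was 0.71 (interval -0.58 to 2.00, FDR = 1), with -0.19 without young ISC replicate 3, so that an age effect particular to AE was not shown.

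Marker lists were read in the same AE libraries. The 14 enterocyte markers summed to 70739 to 90168 CPM in young AE and to 94174 to 111386 CPM in old AE, without overlap, and 14 of 14 had positive log2 fold changes with a median of 0.29. The 10 proliferation markers summed to 139, 409 and 79.8 CPM in young AE and to 95.9 to 99 CPM in old AE, so that the groups overlapped. Of these, 10 of 10 had negative log2 fold changes with a median of -1.42, which was -0.19 without young AE replicate 2, the library at 409 CPM. Of these 24 markers 0 were called by edgeR. A list of 12 immediate early and dissociation genes summed to 1115 to 1728 CPM in young AE and 1326 to 2176 CPM in old AE and overlapped. The part of these cell states in the *Areg* values was not tested.

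*Ereg* in AE was at 3.52, 6.2 and 7.56 CPM in young and 7.61, 9.41 and 11.7 CPM in old mice. The groups did not overlap, though the highest young and the lowest old library were almost equal, and the log2 fold change was 0.70 (SE 0.32, interval -0.04 to 1.43, FDR = 0.844). *Hbegf* had 0.94 in AE (SE 0.51, interval -0.28 to 2.15, FDR = 0.844), and *Errfi1* had 0.59 (SE 0.27, interval -0.02 to 1.20, FDR = 0.844). By DESeq2 the unadjusted p was 0.0431 for *Ereg*, 0.0425 for *Hbegf* and 0.0487 for *Errfi1*. The DESeq2 FDR was 0.799, 0.797 and 0.809 in the same order. Old AE replicate 5 was the highest library for *Hbegf*, with 107 CPM, and for *Errfi1*, with 126 CPM. Without it the log2 fold changes were 0.17 and 0.27. The same library had the highest sum of the immediate early and dissociation list in AE, with 2176 CPM against 1115 to 1728 CPM in the other 5, and the part of this in both values was not tested.

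*Lrig1* did not pass the test with age, with a log2 fold change of 0.13 (interval -0.23 to 0.50) in ISC and -0.50 (interval -1.25 to 0.26, FDR = 0.844) in AE. The value in AE was -0.04 without young AE replicate 2 and -0.76 without young AE replicate 3. Among the receptors, *Egfr* was at -0.09 (interval -0.49 to 0.32) in ISC and -0.11 (interval -0.50 to 0.28) in AE. *Erbb2* was at 0.15 (interval -0.21 to 0.51) and 0.18 (interval -0.22 to 0.58), and *Erbb3* at 0.12 (interval -0.39 to 0.63) and 0.10 (interval -0.42 to 0.62). For these 3 genes the intervals leave room for a change of at most 0.63 on the log2 scale in either direction. *Tgfa* was at -0.02 (interval -0.41 to 0.38) in ISC and 0.24 (interval -0.13 to 0.60) in AE.

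*Egf* had a log2 fold change with age of 0.83 in ISC (SE 0.43, interval -0.15 to 1.80) and -1.44 in AE (SE 0.78, interval -3.16 to 0.28). In AE its old libraries had 3, 4 and 0 counts, the last of which allows up to 0.327 CPM. The difference between the age effects in AE and ISC was -2.27 (SE 0.86, interval -4.10 to -0.43, unadjusted p = 0.0187 by edgeR), and it did not pass the adjustment over 17377 genes (FDR = 1). This was the only gene of the 10 with an unadjusted p under 0.05 in that test (background 3.88%), and 0 of the 10 were called (background 0.00575%; DESeq2 0 of 10, background 0.247%). The summed Paneth cell markers, which ISC sorts can carry, were at 551 to 1641 CPM in young ISC and 638 to 1058 CPM in old ISC, and at 52.1 to 227 CPM in AE. Their part in the *Egf* counts was not tested.

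**Figure D4:**
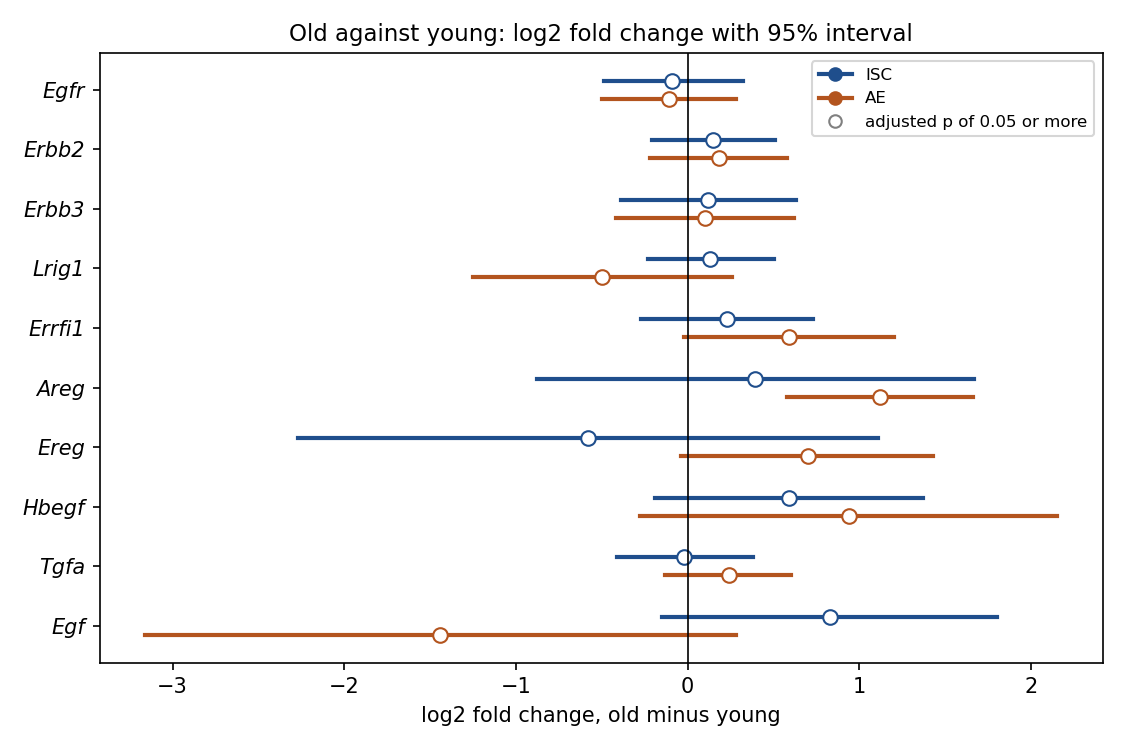
Log2 fold change of old over young (x axis) for each of the 10 genes (y axis) in ISC (blue) and AE (orange), with 95% intervals from edgeR's quasi-likelihood fit on 3 against 3 libraries. All circles are open, as no FDR was under 0.05, and the interval of *Areg* in AE, 0.58 to 1.66, is the only one that leaves out 0.

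Among the other genes of the pathway, 0 of 50 tested in ISC and 0 of 51 tested in AE were called with age by edgeR's quasi-likelihood test. Over all genes, 0% were called in each by that test. DESeq2 called 0 in each (background 0.373% in ISC and 0.111% in AE). At an unadjusted p under 0.05 by edgeR there were 0 in ISC (background 5.04%) and 1 in AE (background 4.79%). The 1 gene was *Nrg1*, whose counts are given above. In AE, 14 of 18 genes of the relay to ERK had positive log2 fold changes with a median of 0.07, and in ISC 8 of 18 had, with a median of -0.01. For the difference of the age effects, edgeR and DESeq2 called 0 of 52 other pathway genes (background 0.00575% and 0.247%). At an unadjusted p under 0.05 by edgeR there were 0 (background 3.88%).

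The genes whose pattern over the 12 libraries was closest to a member were found by Pearson's r of log2 CPM among genes with a mean of at least 10 CPM. For *Lrig1* they were *Pabpc1* (0.998), *Ephb4* (0.997) and *Tmpo* (0.996), for *Egfr* they were *Mga* (0.977), *Huwe1* (0.965) and *Ylpm1* (0.958), and for *Areg* they were *Mgat1* (0.990), *Nr1i3* (0.989) and *Pdk2* (0.988). The points share their libraries and the split into ISC and AE. After the mean of each group was subtracted, r was between 0.87 and 0.97 for these 9 genes, which had been picked for their r before subtraction.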

How the data were processed

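RNA of 12 sorted cell libraries (3 each of young ISC, old ISC, young AE and old AE) was analysed from the raw read counts per gene that the authors deposited. Per the labels and the methods, adaptors were trimmed with Trim Galore 0.4.4, reads were mapped to GRCm38 with HISAT2 2.1.0 (versions from the submitters' processing notes), and uniquely mapped reads were counted in SeqMonk over the exons of merged transcripts. Libraries were made with a directional kit. The annotation release and the strand setting of the gene counts are not given in the sources used here. A second deposited table, of scaled log2 values and -log10 FDR values of 49 genes, holds none of the 10 genes and was not used. Titles of 8 of 12 samples carry a code of one group beside the name of another, so each column was assigned by its own name and not joined to a title, and 0 columns were left over. Replicate numbers are those of the codes (1, 2 and 3 in young, 1, 3 and 5 in old mice).

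The analysis used R 4.3.3 and edgeR 4.0.16. Genes with at least 10 counts over the libraries compared were scaled by TMM and given the quasi-likelihood test of edgeR with robust dispersions and Benjamini-Hochberg adjustment over all genes tested, at 0.05. Comparisons were of age within ISC and within AE, of AE against ISC within each age, and of the age effects between both cell types (all 12 libraries). CPM used TMM factors of all 12 libraries (1.26 to 1.37 in ISC and 0.72 to 0.82 in AE). RPKM were CPM per kilobase of the exon union in GENCODE M21, whose ends equal those in the count table for 9 of the 10 genes and differ by 2 bases for *Hbegf*. Exons of 5 of the 10 genes share bases with another gene on the opposite strand (*Erbb2*, *Lrig1*, *Ereg*, *Tgfa* and *Egf*).

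Replicates differed by more than sampling noise (chi-square over degrees of freedom, 29 to 240). ISC and AE libraries share 3 codes at each age, and the deviations from the group means correlated within codes (r of 0.121 to 0.287 for all 6 pairs, and of -0.214 to 0.0583 for 12 pairs that do not share a code), so the code was taken as a pairing from the data and entered as a replicate block in 1 alternative. The methods list 3 animals per age for 3 ISC and 3 AE libraries, but do not state that a code is a mouse.

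The 10 genes and the lists were chosen with earlier results of these data known. All 10 genes were named, with, per pathway list and direction, the 3 genes called with the largest change, and the 3 genes closest in pattern to *Egfr*, *Lrig1* and *Areg*; *Adam17*, *Btc* and genes at or near 0 counts were named after their values were seen. The alternatives were DESeq2 1.42.0, RLE size factors, other filters, a fit on all 4 groups, thinning of the deepest library, the replicate block and leaving out each library; the marker lists with age in AE without each AE library, library totals without TMM and the default settings of the quasi-likelihood fit were chosen after seeing the data. The fit was run on simulated data with large changes planted in genes of ample counts. That run does not measure how often smaller changes or changes at low counts would be called. Promoter sequences are from RefSeq (GRCm38.p6).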

Additional observations from a re-analysis of the deposited data

How the results depend on the processing

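Of 398 values of single genes under other settings, 382 kept their direction and their side of the threshold, as did 329 of 360 with 1 library left out. DESeq2 called 1 of the 10 genes with age in AE (*Areg*), where edgeR called 0. The 10 genes called numbered 9 in young and 9 in old mice with the replicate block (paired by code), where *Hbegf* in old mice was at 1.67 (FDR = 0.116), and the block changed no other call. They numbered 8 to 9 in young and 8 to 10 in old mice with 1 library left out. With library totals only they numbered 7 at each age. Of these, 5 were higher and 2 lower in young mice, and 4 higher and 3 lower in old mice. Over all genes, library totals called 9996 of 16681 in young and 11340 of 15855 in old mice. The replicate block called 9471 and 10814 genes. With 1 library left out, 7403 to 8929 genes were called in young and 9121 to 10273 in old mice. With library totals *Hbegf* in old mice was at 1.10 (FDR = 0.0867).

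No value that changed sign was called with all libraries. With library totals only, *Tgfa* with age in ISC was at 0.02, *Erbb3* with age in AE at -0.02 and the difference of age effects of *Erbb2* at -0.13. That difference was 0.02 (DESeq2), 0.01 (RLE size factors) and 0.0027 (thinned library) for *Egfr*, and 0.02, 0.02 and 0.01 (DESeq2, RLE size factors and replicate block) for *Erbb3*. With 1 library left out, age effects in ISC were from -0.10 to 0.23 for *Erbb3*, -0.10 to 0.10 for *Tgfa*, -0.27 to 0.03 for *Egfr* and -0.01 to 0.40 for *Errfi1*. In AE they were from -0.07 to 0.37 for *Erbb3* and -0.20 to 0.01 for *Egfr*. *Egf* between AE and ISC of young mice was from -0.76 to 0.05. The difference of age effects was from -0.17 to 0.16 for *Egfr*, -0.15 to 0.15 for *Erbb2*, -0.25 to 0.22 for *Erbb3*, -0.19 to 1.10 for *Areg*, -0.47 to 0.65 for *Hbegf* and -0.01 to 0.59 for *Errfi1*. The cause was not tested.

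Over all genes, those called with age in ISC were 0 by edgeR, 58 by DESeq2, 3 in the fit on all 4 groups, 1 with a minimum of 1 count and 1 without old ISC replicate 1. In AE they were 0, 18 by DESeq2, 2 in the fit on all 4 groups, 1 with the deepest library thinned to 14946208 counts and 1 without young AE replicate 3. For the difference of age effects, 1 gene was called, 43 by DESeq2, 19 with the replicate block, 0 with library totals and 0 to 3 with 1 library left out. Low counts limit *Egf* in all groups and *Areg* and *Ereg* in ISC. Of the other pathway genes named with a change, they limit *Nrg1*, *Spry4* and, in AE, *Etv4*.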
